A study of Mus musculus with 8 samples.

Results

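Granule neuron maturation was followed across hippocampal nuclei of mouse pups through Eomes, Neurod1, Sox11, Dcx, Igfbpl1, Draxin, Prox1, Bhlhe22 and Calb1. These 9 genes were taken by name from the 32285 genes of the RNA matrices, and no cutoff on a measured value chose them. All 9 were detected, in 0.590% of retained nuclei for Eomes up to 42.2% for Prox1. For each gene the RNA level, the chromatin accessibility over the gene body and its 2 kb of upstream sequence, and the difference between maternal diets were described in cycling, immature, transitional and mature granule nuclei and in the other cell types.

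New granule neurons of the dentate gyrus arise from dividing progenitors through a chain of states that each carry their own genes. The T-box factor Eomes (Tbr2) marks intermediate progenitors, and the basic helix-loop-helix factor Neurod1 and the SRY-box factor Sox11 act at the exit from division and in early neuronal differentiation. Dcx encodes a microtubule-binding protein of migrating and immature neurons, and Draxin a secreted axon guidance protein. Prox1 is the homeodomain factor that gives and keeps granule cell identity, Bhlhe22 is a helix-loop-helix factor of projection neurons, and Calb1 encodes the calcium-binding protein calbindin, which granule neurons gain late in maturation.

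The C57BL/6J dams were wild type and 8 weeks old at assignment by the sample labels, and ate amino acid-defined diets with folic acid (FA) at 2 mg/kg (MF) or 20 mg/kg (HF) from before mating to the end of lactation. Hippocampi of male pups were dissected at postnatal day 21, and RNA and open chromatin were read from the same nuclei with the 10x Genomics multiome assay. Each diet had 2 libraries, MF1 and MF2 against HF1 and HF2, named by the replicate number in the labels. How many pups or litters stood behind a library was not given in the sources used here, so p-values below measure only the spread between these libraries.

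Of 14297 deposited nuclei, 11518 passed the filters, with library medians of 6117 to 7053 RNA molecules (UMIs) and 15748 to 22670 ATAC counts per nucleus. Libraries shared 8 to 20 barcodes pairwise. Stages were named from marker genes in clusters built without the 9 members and without the annotated genes that overlap them, and each name means that the nuclei resembled that stage. Immature granule-like nuclei numbered 912, in a cluster led by 2610307P16Rik and Tac2 (394 nuclei) and one led by Pappa2 and Sema3c (518 nuclei). Transitional granule-like nuclei numbered 207. Mature granule-like nuclei numbered 1366, in clusters led by Hba-a2 and Iigp1 (523), by Mylk3 and Gpnmb (263) and by Tmem114 and Tmem164 (580).

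Cycling neuronal progenitor-like nuclei numbered only 30, with 12 in HF1 and 6 in each other library. Markers of other cells moved with these groups and with the stages. From immature through transitional to mature nuclei the inhibitory neuron list of 12 genes summed to 274 to 525, 627 to 872 and 1031 to 1281 CPM (UMIs scaled to a common total in each library and class) without overlap, and the astrocyte list of 12 genes to 486 to 588, 299.99 to 373 and 227 to 252 CPM. The CA1 list, of which 11 genes were measured, summed to 733 to 1010 CPM in transitional against 459 to 544 in mature nuclei. The choroid plexus and ependymal list of 10 genes summed to 148 CPM in immature and 122 CPM in mature nuclei of HF1 against 13.5 to 29.3 in the other libraries. Their part in the stage values was not tested. The microglial marker list of 12 genes summed to 1661 and 1737 CPM in cycling nuclei of MF1 and MF2 against 199 and 209 in HF1 and HF2. The inhibitory neuron list of 12 genes, 4 of them at 0, summed to 1253 CPM in HF2, where Eomes, Neurod1 and Draxin were at 0, against 203 to 341 in the other libraries. Over the 4 libraries the astrocyte list of 12 genes summed to 1695 to 1962 CPM, and the oligodendrocyte progenitor list of 12 genes to 1322 to 2459 CPM, with 5 of its genes at 0, among them the defining marker Pdgfra. Their part in the cycling values was not tested. The transitional list of 8 genes summed to 316 to 393 CPM in transitional nuclei but to 429 to 536 CPM in immature nuclei. The transitional name rested on Rasef, Lepr and Cdhr1 against all other excitatory nuclei. Pooled over libraries, Rasef was 17.5 CPM in transitional against 27.4 in immature nuclei and Lepr 34.6 against 56.1. Only Cdhr1 of these was higher in transitional nuclei, at 15.0 against 7.74 CPM. The 4 haemoglobin genes summed to 3978 CPM in immature nuclei of MF1 against 391 to 574 in the other libraries, and to 3912 against 224 to 300.1 in mature nuclei. Their part in the member values was not tested, and the stage comparisons were also run without the haemoglobin-led mature cluster.

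Along the stages, 8 of the 9 members were lower in mature than in immature granule nuclei in all 4 libraries, and Calb1 was higher in all 4. Among 7935 genes with at least 20 CPM in either stage, 46.2% were lower and 21.2% higher in mature nuclei in all 4 libraries. Because the members are known stage genes, the RNA levels by stage are given as a description with no test. Differences between stages are on the log2(CPM + 1) scale, taken within each library and given as mean ± SD of 4 libraries, which understates the difference of genes near 0.

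Eomes, like Draxin, had its highest mean level in cycling nuclei, where its range overlapped that of immature nuclei. In the 30 cycling nuclei it reached 67.8 CPM in MF1, 170.3 in MF2 and 99.3 in HF1 but 0 in HF2, all together on 11 UMIs. In immature nuclei all 28 Eomes UMIs lay in the 394 nuclei of the Tac2-led cluster, at 24.4 ± 11.0 CPM. None lay in the 518 nuclei of the Pappa2-led cluster, which allows up to 3 counts there, or 1.52 CPM. Transitional nuclei held 2.51 ± 0.78 CPM on 5 UMIs, and mature nuclei 1 UMI in 1366 nuclei. The pooled Eomes share was 97.9 times as high in immature as in mature nuclei, with a 95% counting interval of 16.2 to 4004.

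Neurod1 was highest on average in immature nuclei, at 176, 99.0, 145 and 124 CPM in MF1, MF2, HF1 and HF2. Cycling nuclei held 86.6 ± 70.4 CPM on 11 UMIs, with libraries from 0 to 170.3 CPM that overlapped the immature range. Neurod1 stood at 47.3 ± 15.7 CPM in transitional and 27.7 ± 9.29 CPM in mature nuclei. No library of these later stages reached the lowest immature library. The log2 difference of mature from immature was -2.28 ± 0.36. Within the immature stage it was 206 ± 32.4 CPM in the Tac2-led and 97.3 ± 29.8 CPM in the Pappa2-led cluster. The whole Neurod1 gene lies inside Cerkl on the same strand, so counting could have split reads between them. Cerkl itself held 54.2 CPM in immature and 20.2 in mature nuclei, pooled over libraries. The 300 bases before the Neurod1 start lie at chr2:79456752-79457051 on the minus strand of GRCm38 (mm10). They are shown because, of the tested regions of the gene, the one over them lost accessibility most clearly with maturation. Capitals mark the E-box CAGATG, a form of the motif that factors of the NeuroD family bind.
Neurod1 upstream: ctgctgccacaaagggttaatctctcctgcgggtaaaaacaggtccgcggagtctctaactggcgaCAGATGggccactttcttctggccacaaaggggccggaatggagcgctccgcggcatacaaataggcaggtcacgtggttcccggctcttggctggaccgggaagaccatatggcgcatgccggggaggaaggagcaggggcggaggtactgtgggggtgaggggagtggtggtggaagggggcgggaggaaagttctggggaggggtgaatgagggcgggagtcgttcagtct

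Sox11 was also highest in immature nuclei, with 649.85, 589, 505 and 516 CPM in MF1, MF2, HF1 and HF2. It was 158 ± 37.9 CPM in transitional and 47.0 ± 3.83 CPM in mature nuclei, and the libraries of neighbouring stages did not overlap. The difference of mature from immature was -3.55 ± 0.08, the most even of the set between libraries. Cycling nuclei held 333 ± 162 CPM, with HF1 at 99.3 and the others at 348 to 443, on 35 UMIs.

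Dcx followed the same course at 305, 362, 338 and 348 CPM in immature nuclei. Transitional nuclei held 136 ± 15.9 CPM and mature nuclei 30.4 ± 4.69 CPM, again with no overlap between neighbouring stages. The mature clusters were unequal. The Tmem114-led cluster kept 50.4 ± 7.93 CPM against 12.0 ± 5.47 in the haemoglobin-led cluster, and every library of the first lay above every library of the second.

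Igfbpl1, which encodes a secreted protein related to insulin-like growth factor binding proteins, had the largest stage difference of the set on the log2(CPM + 1) scale, on which Draxin and Eomes are understated in mature nuclei. It was 924, 592, 838 and 516 CPM in immature nuclei of MF1, MF2, HF1 and HF2. Transitional nuclei held 229.5, 102, 197 and 136 CPM, and mature nuclei 22.3, 10.5, 17.1 and 10.6. In each of these stages both libraries numbered 1 lay above both numbered 2, with either diet on each side. The difference of mature from immature was -5.50 ± 0.15. Cycling nuclei, at 348 to 915 CPM on 78 UMIs, overlapped the immature libraries.

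Draxin was highest in the cycling nuclei of 3 libraries, at 271, 170.3 and 124 CPM in MF1, MF2 and HF1, with 0 in HF2. Immature nuclei held 44.5, 53.7, 36.7 and 45.7 CPM and transitional nuclei 10.1, 5.50, 8.88 and 15.7. Mature nuclei held 2 UMIs in 1366 nuclei, both in HF1. The pooled share was 240 times as high in immature as in mature nuclei, with a 95% counting interval of 65.1 to 1998. Like Eomes it was higher in the Tac2-led immature cluster (75.2 ± 25.1 CPM) than in the Pappa2-led one (29.0 ± 1.98), without overlap. An intronic region of each of Igfbpl1 and Draxin, picked after the accessibility values were seen as the intronic region with the largest stage difference, is shown by its central 300 bases. The first lies at chr4:45819360-45819659 and the second at chr4:148122536-148122835, both read on the minus strand that carries the genes. Capitals mark E-boxes CAGATG and CAGCTG.
Igfbpl1 intron: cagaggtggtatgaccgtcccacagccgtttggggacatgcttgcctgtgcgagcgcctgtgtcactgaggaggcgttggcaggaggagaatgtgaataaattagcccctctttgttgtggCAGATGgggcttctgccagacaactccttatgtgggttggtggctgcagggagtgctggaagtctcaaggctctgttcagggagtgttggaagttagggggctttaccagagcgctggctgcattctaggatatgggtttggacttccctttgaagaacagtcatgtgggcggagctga
Draxin intron: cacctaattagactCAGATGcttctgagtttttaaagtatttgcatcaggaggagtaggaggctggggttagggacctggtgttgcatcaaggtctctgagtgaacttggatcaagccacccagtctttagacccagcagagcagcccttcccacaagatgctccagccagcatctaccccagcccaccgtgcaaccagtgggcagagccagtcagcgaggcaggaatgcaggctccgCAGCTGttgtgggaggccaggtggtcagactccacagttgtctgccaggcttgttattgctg

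Prox1 and Bhlhe22 differed less between stages. Prox1 was 649.85, 804, 769 and 841 CPM in immature nuclei, 529 to 583 in transitional and 360 to 434 in mature nuclei, in ordered ranges that did not overlap. The difference of mature from immature was -0.90 ± 0.21. In cycling nuclei Prox1 was 133 ± 66.3 CPM, below every library of the later stages. Bhlhe22 was 149 ± 13.1 CPM in immature, 102 ± 27.4 in transitional and 79.5 ± 20.3 in mature nuclei. Immature and transitional libraries did not overlap, but transitional and mature ones did. At equal depth, after thinning to 2000 UMIs, the difference of transitional from immature for Bhlhe22 went from -0.57 to -0.14 and was above 0 in both MF libraries (0.05 and 0.48). Thinning also moved the difference of transitional from immature from -1.40 to -2.89 for Eomes and from -2.13 to -3.38 for Draxin, and that of mature from transitional from -1.64 to -0.82 for Eomes, with 0 in 3 libraries, and from -3.21 to -2.12 for Draxin, with 0 in 2 libraries. Thinning also removes counts, and transitional nuclei held only 5 Eomes UMIs before it. The loss of counts was not separated from depth in these values. The antisense gene Prox1os held 64.8 CPM in immature and 65.5 in mature nuclei, pooled over libraries, where Prox1 itself was lower. The 300 bases before the Prox1 start are at chr1:190170715-190171014, minus strand, and hold both E-boxes, in capitals. They are shown as the upstream window of the member that stayed high in every granule stage.
Prox1 upstream: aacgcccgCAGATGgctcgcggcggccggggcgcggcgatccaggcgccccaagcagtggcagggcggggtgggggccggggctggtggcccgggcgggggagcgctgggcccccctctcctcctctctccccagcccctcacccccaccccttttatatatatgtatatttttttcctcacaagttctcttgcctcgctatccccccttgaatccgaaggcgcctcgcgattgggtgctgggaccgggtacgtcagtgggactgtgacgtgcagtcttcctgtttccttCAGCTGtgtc

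Calb1 ran the other way. It was 46.5, 58.7, 55.1 and 30.5 CPM in immature nuclei of MF1, MF2, HF1 and HF2, then 179, 220.1, 197 and 159 in transitional and 218, 189, 203 and 174 in mature nuclei. Every transitional and mature library thus lay above every immature one, while transitional and mature libraries overlapped. The difference was 2.00 ± 0.24 from immature to transitional and 0.06 ± 0.21 from transitional to mature. The last value turned to -0.19 without the haemoglobin-led mature cluster and to -0.11 after thinning to 2000 UMIs, with Calb1 higher in mature nuclei of 1 of 4 libraries in each case, and it was -0.02 with the members returned to the clustering genes. Cycling nuclei held 2 UMIs. Among mature clusters the haemoglobin-led one was highest, at 245 ± 16.3 CPM, and the Mylk3-led one lowest, at 114 ± 9.20 CPM, without overlap. The 300 bases before the Calb1 start lie at chr4:15880964-15881263 on the plus strand. They are shown as the upstream window of the one member that gained accessibility with maturation. They begin with an E-box read on the other strand (CATCTG, in capitals).
Calb1 upstream: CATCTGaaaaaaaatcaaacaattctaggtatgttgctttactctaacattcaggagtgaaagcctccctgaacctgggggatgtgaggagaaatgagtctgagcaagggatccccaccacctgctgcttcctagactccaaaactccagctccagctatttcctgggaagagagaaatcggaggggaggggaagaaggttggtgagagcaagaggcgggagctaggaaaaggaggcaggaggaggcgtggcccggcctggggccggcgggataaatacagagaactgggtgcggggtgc

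Both E-boxes were searched on both strands in the windows of all members. CAGATG occurs in 15.8% and CAGCTG in 14.2% of the 300-base windows before 21938 protein-coding genes, and in 35.7% and 23.9% of 154762 region centres of the same length. Of the 9 upstream windows, 3 held CAGATG (Neurod1, Prox1 and Calb1), 2 held CAGCTG (Draxin and Prox1) and 5 held neither (Eomes, Sox11, Dcx, Igfbpl1 and Bhlhe22). Of the 9 centres of each member's region of smallest stage FDR, 2 held CAGATG (Sox11 and Dcx), 3 held CAGCTG (Sox11, Draxin and Prox1) and 5 held neither. The 5 windows printed all hold at least 1 of these motifs and so do not stand for the members' windows as a whole. A match describes the letters of the window and is no evidence of binding.

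**Figure D1:**
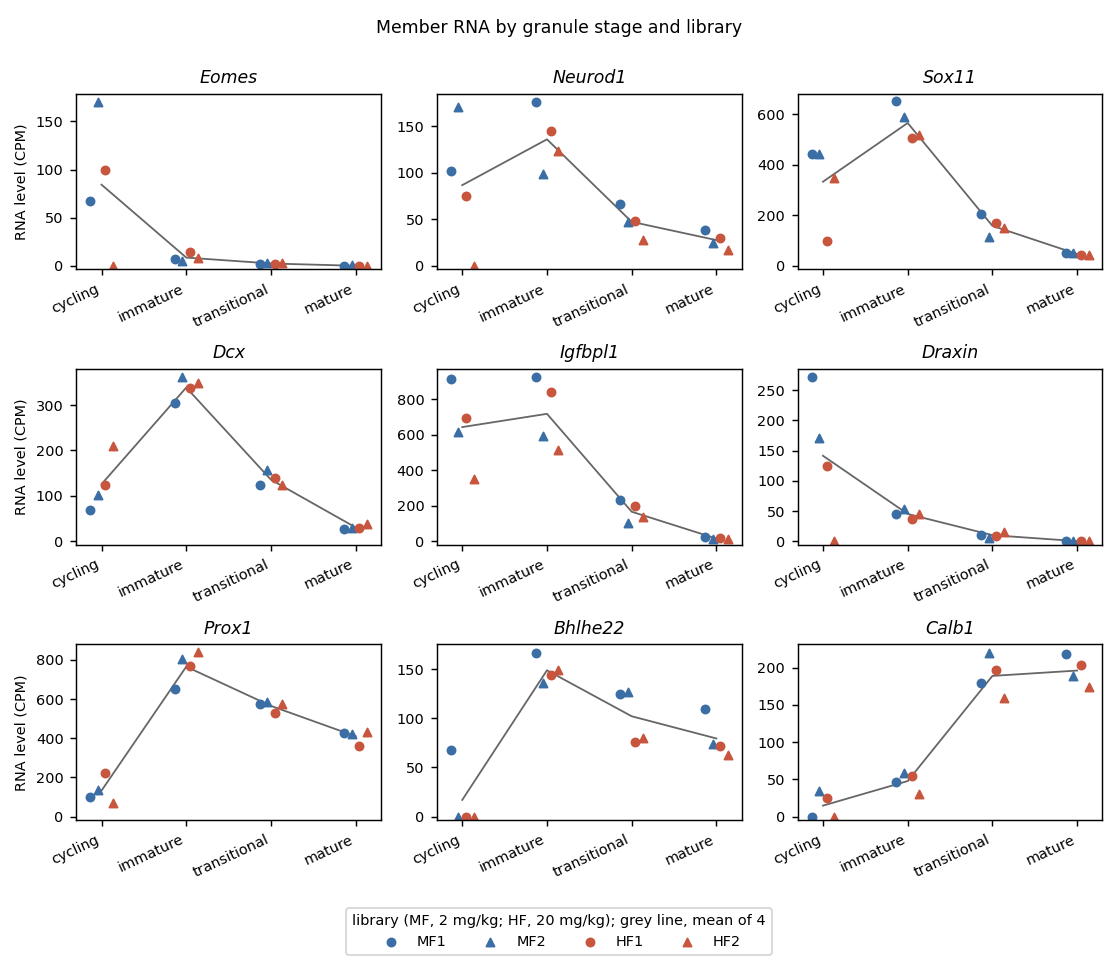
RNA level of each of the 9 genes in CPM (linear axis from 0, one panel a gene) in cycling, immature, transitional and mature granule-like nuclei. Each point is 1 library and the grey line joins the means of 4 libraries: Eomes and Draxin are highest in cycling nuclei, Neurod1, Sox11, Dcx, Igfbpl1, Prox1 and Bhlhe22 in immature nuclei, and Calb1 reaches its plateau in transitional nuclei.

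After thinning, the shares of nuclei with at least 1 UMI of Sox11 and Dcx had the order of their levels, and before it that of Dcx did not. To compare nuclei of unequal depth (median 3028 UMIs in immature, 7955 in transitional and 7348 in mature nuclei), each nucleus was thinned to 2000 UMIs, which left out 82 immature, 0 transitional and 8 mature nuclei. Sox11 was then seen in 64.2% of immature, 27.1% of transitional and 9.65% of mature nuclei, and in 78.3, 66.7 and 26.9% before thinning. Dcx was seen in 47.0, 25.6 and 5.38% after thinning and in 61.6, 65.7 and 18.5% before. Calb1 was seen in 7.35, 31.4 and 28.6% after thinning and in 13.2, 67.6 and 66.0% before. Microglia should lack these genes and were taken as a guide to free RNA, a use that was not tested. Their shares were 2.67% for Sox11, 0.889% for Dcx and 5.33% for Calb1 after thinning (225 of 691 nuclei kept, median depth 1758 UMIs). Before thinning the microglial shares were 2.03, 0.724 and 4.63%. The thinned Calb1 share of immature nuclei (95% exact binomial interval 5.67 to 9.34%) was thus close to the microglial one. The thinned Igfbpl1 share of mature nuclei, 2.80% (1.99 to 3.82%), was close to the 1.78% of microglia. Such intervals and floors cover counting error only.

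The difference of mature from immature kept its direction when the stages were drawn in other ways, but the step from transitional to mature did not for every member. The 2485 granule nuclei named from RNA were grouped by their ATAC counts in regions away from the members, which gave 7 clusters. Each cluster took the RNA stage most common in it, and 91.4% of the nuclei then had the same stage as by RNA. That is a majority share and no independent check of the stages. No cluster was mostly transitional, so all 207 transitional nuclei count as differing. On the stages from ATAC clusters the RNA difference of mature from immature was -4.44 for Igfbpl1, -3.19 for Sox11, -2.91 for Dcx and 1.44 for Calb1. Again 8 members were lower and 1 higher. Without the haemoglobin-led cluster it was -5.11, -3.24, -2.99 and 1.80. The transitional nuclei were the softest point, since 48 of 207 lay over the doublet score of 0.05. Without nuclei over that score the difference of transitional from immature moved from -1.53 to -2.09 for Neurod1 and from -2.13 to -3.24 for Draxin, while that of Calb1 was 1.97. The difference of mature from transitional then moved from -0.75 to -0.21 for Neurod1 from -0.35 to -0.16 for Bhlhe22, from -1.64 to -0.85 for Eomes and from -3.21 to -2.10 for Draxin, and in 1 library each Neurod1, Eomes and Bhlhe22 were higher in mature nuclei. With the members returned to the clustering genes, the transitional nuclei held no Eomes or Draxin above mature ones, with differences of mature from transitional of 0.00 and 0.19, Neurod1 was higher in mature than in transitional nuclei of HF2, and Bhlhe22 differed by -0.10 between transitional and immature nuclei, with MF2 reversed. In that setting the difference of transitional from immature was -4.03 for Eomes, -5.77 for Draxin, -0.18 for Prox1 and 1.18 for Calb1, against -1.40, -2.13, -0.43 and 2.00. It named 497 nuclei as immature against 912, 182 as transitional against 207 and 1287 as mature against 1366. Its values therefore come from other groups of nuclei, most of all for the immature stage.

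Outside the granule lineage the members split. Dcx was 143 ± 6.00 CPM in inhibitory neuron-like nuclei, next to its transitional level, and 97.8 ± 10.2 CPM in oligodendrocyte progenitor-like nuclei. Prox1 was 247 ± 34.0 CPM in oligodendrocyte-like nuclei, 36.7% of which had a UMI after thinning against 6.67% of microglia, and 84.7 ± 8.55 CPM in inhibitory neuron-like nuclei. Calb1 was 66.5 ± 16.9 CPM in inhibitory neuron-like and 37.5 ± 8.94 CPM in CA1-like nuclei, and the CA1-like libraries overlapped those of microglia (30.5 ± 14.2 CPM). Eomes was seen on 8 UMIs in Cajal-Retzius-like nuclei, at 8.40 ± 12.8 CPM, and on 0 UMIs in CA1-like nuclei. CA1-like nuclei held Prox1 at 12.3 ± 3.25 CPM and microglia at 50.2 ± 20.5 CPM, at median depths of 12243 and 1758 UMIs. A Prox1 UMI was seen in 11.8% of CA1-like nuclei and 7.81% of microglia before thinning and in 2.95 and 6.67% after it, so no order was read from them.

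An unnamed cluster of 364 excitatory nuclei, led by Trhr and Stk32b, overlapped mature granule nuclei in some members and not in others. It held Prox1 at 363 ± 37.0 CPM and Calb1 at 207 ± 43.4 CPM, and both ranges overlapped those of mature granule nuclei. Igfbpl1, at 2.10 to 9.17 CPM against 10.5 to 22.3, and Sox11, at 28.4 to 42.4 against 42.6 to 50.8, lay below every mature library. A second unnamed cluster of 345 nuclei, led by Gm29521 and Adgrv1, held Prox1 at 292 ± 42.3 CPM and Calb1 at 105 ± 5.36 CPM. Neither entered the granule stages, because the marker rule gave them no name.

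**Figure D2:**
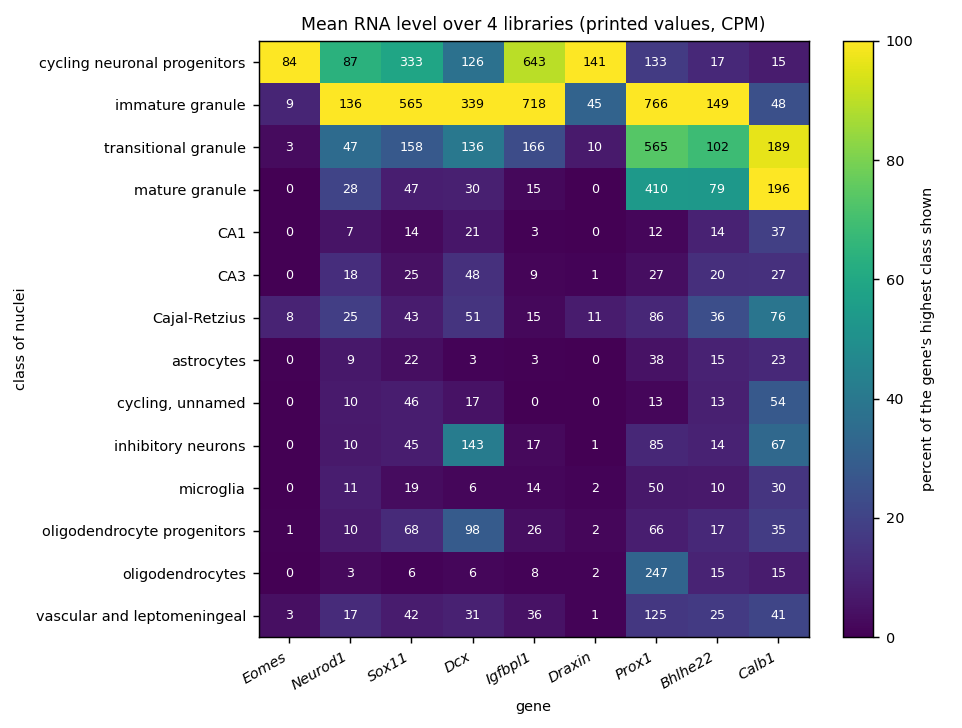
Mean RNA level over 4 libraries (printed, CPM) of each gene in the granule stages, the other named classes and the unnamed cycling nuclei. The colour gives the level as a percentage of the highest class of the same gene, so the scale compares classes within a gene and not genes with each other.

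Chromatin over the members followed the direction of the RNA, with 8 members less accessible in mature than in immature nuclei in all 4 libraries and Calb1 more accessible in all 4. The share of all genes that did so was not counted, so these counts describe the members only. Accessibility is given as ATAC CPM, the counts in regions with a peak in all 4 libraries that lie over the gene body or up to 2 kb upstream, scaled to CPM over all such regions. Draxin was 155, 153, 157 and 158 ATAC CPM in immature, 86.8 ± 7.59 in transitional and 53.7 ± 4.93 in mature nuclei, with no overlap between stages. Igfbpl1 was 110 ± 7.35, 72.5 ± 15.8 and 32.8 ± 1.67 ATAC CPM, and Neurod1 90.7 ± 7.63, 52.8 ± 5.96 and 31.0 ± 4.16, both also without overlap. In these 3 genes accessibility was lower at each step of maturation in every library.

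Sox11 was 119 ± 11.2 ATAC CPM in immature, 85.9 ± 16.6 in transitional and 85.6 ± 12.4 in mature nuclei. This sum joins 2 regions that went opposite ways from immature to mature nuclei. The log2 difference was -0.94 at the start region and 0.46 at the region further into the gene. The median over all tested regions was 0.20, and the call of the further region did not hold under every setting run, as given below. The RNA of Sox11 differed by -3.55 on the log2 scale. Inhibitory neuron-like nuclei kept 78.0 ± 7.10 and CA1-like nuclei 58.5 ± 10.7 ATAC CPM over Sox11. Dcx was low in every granule stage, at 17.8 ± 2.74, 16.8 ± 3.56 and 11.5 ± 1.10 ATAC CPM. That sum covers 4 of its 11 regions and leaves out the one over its start, which lacked a peak in MF1. Eomes had 1 region and 8.38 ± 3.24 ATAC CPM in immature against 2.23 ± 0.31 in mature nuclei.

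Prox1 was 72.5 ± 8.16, 57.4 ± 13.5 and 53.3 ± 7.04 ATAC CPM in immature, transitional and mature nuclei, and Bhlhe22 72.6 ± 2.13, 61.9 ± 5.22 and 49.5 ± 9.02. For Prox1 neighbouring stages overlapped. CA1-like nuclei held 5.02 ± 0.98 ATAC CPM over Prox1, and oligodendrocyte-like nuclei 70.6 ± 19.1. Calb1 was higher at each later stage on average, at 2.35 ± 1.25, 18.2 ± 3.69 and 20.8 ± 1.76 ATAC CPM. CA1-like nuclei held 33.2 ± 3.58 ATAC CPM over Calb1, above every granule library, while their Calb1 RNA was below that of transitional and mature granule nuclei.

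Mature and immature nuclei were compared region by region with edgeR's quasi-likelihood test on library sums, with the library as a term, because the stages were named from RNA and accessibility is a separate readout of the same nuclei. Of 113767 regions tested, 53.4% were called at a false discovery rate (FDR) under 0.05, 29.9% as higher and 23.6% as lower in mature nuclei, with a median log2 difference of 0.20. The members had 53 regions. A peak was called in every library at 30 of them, and 27 were tested. Of these 27, 2 were called higher, 18 lower and 7 neither, with a median of -0.94. Another 2 Dcx regions and 1 Calb1 region had too few counts for the test.

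The start regions gave the clearest values, and for each member the tested region at or nearest the start had the smallest FDR of its regions. At the Calb1 start (chr4:15880805-15881731) the library values were 0.511, 2.69, 3.22 and 2.99 ATAC CPM in immature and 21.0, 18.2, 19.5 and 21.9 in mature nuclei. The log2 difference of mature from immature was 2.996 (SE 0.30, edgeR FDR 1.43e-11), and every mature library lay above every immature one. At the Draxin start (chr4:148130388-148131250) values went from 35.0, 31.7, 38.9 and 37.0 to 4.53, 4.74, 5.06 and 5.87, a difference of -2.96 (SE 0.18, edgeR FDR 7.25e-19). At the Igfbpl1 start (chr4:45826271-45827208) the mean went from 35.1 ± 3.19 to 6.29 ± 1.87 ATAC CPM, a difference of -2.64 (SE 0.17, edgeR FDR 2.14e-17).

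The Neurod1 start (chr2:79456380-79457261) went from 75.7 ± 6.89 to 22.5 ± 3.03 ATAC CPM, a difference of -1.89 (SE 0.11, edgeR FDR 6.42e-20). Smaller differences were called at the starts of Bhlhe22 (-0.998, SE 0.10), Sox11 (-0.94, SE 0.08) and Prox1 (-0.74, SE 0.12). Eomes had no shared region over its start, and the nearest, in a coding exon 480 bases away, gave -2.002 (SE 0.37, edgeR FDR 1.42e-05). The Dcx region over the start had a peak in only 3 libraries and was not tested. The nearest tested Dcx region, in a coding exon 1078 bases from the start, went from 6.47 ± 1.19 to 3.87 ± 0.65 ATAC CPM. Its difference was -0.88 (SE 0.35, edgeR FDR 0.0313). That call was lost under DESeq2 (-0.78), without the haemoglobin-led cluster (-0.53) and without MF1, MF2 or HF1 (-0.91, -0.68 and -0.96), and it was the only start or near-start call of the 9 lost under any setting run.

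Away from the starts the differences were uneven within a gene. The intronic Draxin region 8012 bases into the gene, whose sequence is given above, went from 15.1, 14.2, 16.6 and 13.1 to 1.81, 1.68, 0.298 and 0.286 ATAC CPM. Its difference of -4.04 (SE 0.38) was larger than that of the Draxin start. The intronic Igfbpl1 region, 7413 bases in, went from 23.7 ± 4.16 to 6.39 ± 1.34 ATAC CPM, at -2.03 (SE 0.20). In the cycling nuclei it held 86.6 ± 30.6 ATAC CPM, higher in every library than any immature library. The Sox11 region 3232 bases from the start, in untranslated exon sequence, was called higher in mature nuclei at 0.46 (SE 0.16). This Sox11 call did not hold without MF1, HF1 or HF2 in turn, nor without the haemoglobin-led cluster. Of the 5 Prox1 regions, 2 were called lower and 3 were not called, at -0.46, -0.41 and 0.24.

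**Figure D3:**
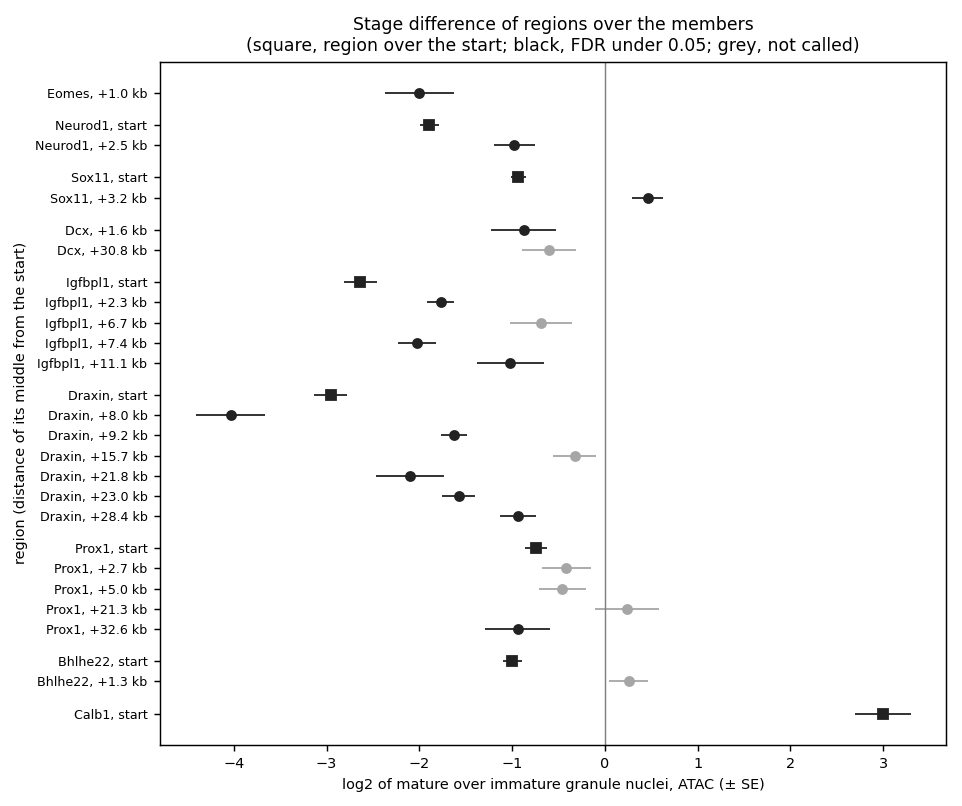
Log2 difference of mature from immature granule-like nuclei (ATAC, edgeR, ± SE) for the 27 tested regions of the 9 genes, by gene. Squares mark regions over an annotated start, black marks called regions and grey those not called; the Calb1 start stands alone at 2.996 and the Draxin intron lies lowest at -4.04.

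Between diets no tested member was called by RNA in the 5 classes tested, in which Eomes did not pass the filter on low counts and Draxin passed it only in immature nuclei. With edgeR's quasi-likelihood test on library sums (FDR under 0.05 and at least 1.2-fold), 0 of 9194 genes were called in immature (0%), 0 of 7454 in transitional (0%) and 0 of 11735 in mature granule nuclei (0%). At an unadjusted p under 0.05 there were 159, 190 and 278 genes, and DESeq2 called 0 in each with 14, 24 and 34. In the CA1-like and inhibitory neuron-like classes edgeR called 0 of 10286 and 0 of 12363 genes (0% each), with 218 and 259 at an unadjusted p under 0.05, and DESeq2 called 0 with 39 and 54. Without MF1, MF2, HF1 or HF2 in turn, edgeR called 1, 8, 9 and 7 genes in immature, 0, 1, 1 and 4 in transitional and 3, 11, 7 and 7 in mature nuclei, with no member among them. An exact permutation test of 2 against 2 libraries cannot go below p = 0.333.

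Within the granule stages Bhlhe22 in transitional nuclei had the largest diet difference of the tested members, at 125 and 127 CPM in MF against 76.4 and 80.4 in HF. The HF libraries lay below the MF ones, with a log2 difference of HF from MF of -0.64 (SE 0.29, edgeR unadjusted p = 0.0363, adjusted p = 0.9999). Without nuclei over the doublet score of 0.05, which left 28 of 54 MF1 nuclei, the libraries overlapped, at 78.5 and 115.9 CPM in MF against 76.0 and 80.1 in HF, and the difference was -0.31 (edgeR unadjusted p = 0.365). In mature nuclei Bhlhe22 was 109 and 73.6 CPM in MF against 72.0 and 63.0 in HF, a difference of -0.35 (SE 0.20, edgeR adjusted p = 0.9997). In immature nuclei it was -0.01 (SE 0.24, edgeR adjusted p = 0.99996), so no order between diets was seen there.

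Sox11 in immature nuclei was 649.85 and 589 CPM in MF against 505 and 516 in HF, at -0.23 (SE 0.28, edgeR adjusted p = 0.99996). Dcx in mature nuclei was 25.9 and 29.1 CPM in MF against 29.5 and 37.0 in HF, at 0.37 (SE 0.24, edgeR adjusted p = 0.9997). In CA1-like and inhibitory neuron-like nuclei the largest value of the tested members was that of Neurod1 in CA1-like nuclei, at 0.92 (SE 0.48, edgeR unadjusted p = 0.068, adjusted p = 0.9999), on 50 UMIs. Calb1 in CA1-like nuclei had a difference of 0.64 (SE 0.25, edgeR unadjusted p = 0.018, adjusted p = 0.9999) and in inhibitory neuron-like nuclei of -0.44 (SE 0.20, edgeR unadjusted p = 0.0474, adjusted p = 0.9995). In mature granule nuclei the Calb1 difference was -0.03 (SE 0.21), so Calb1 had no common direction across classes.

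Both HF libraries lay outside both MF libraries for 1 of 8 tested members in immature nuclei (Sox11 below), where 25.5% of all tested genes did so. In transitional nuclei it was 1 of 7 (Bhlhe22 below, 27.1% of all tested genes) and in mature nuclei 3 of 7 (Dcx above, Sox11 and Bhlhe22 below, 27.1%). In CA1-like nuclei it was 2 of 6 (Neurod1 and Calb1 above) against 26.7%, and in inhibitory neuron-like nuclei 4 of 7 (Neurod1 above, Igfbpl1, Bhlhe22 and Calb1 below) against 25.5%. Without nuclei over the doublet score the HF and MF libraries overlapped for Bhlhe22 in transitional nuclei and for Bhlhe22 and Dcx in mature nuclei, and remained apart for Sox11 in immature and mature nuclei. The test of whether the diet difference itself differed between mature and immature nuclei called 0 of 11790 genes (0%), with 475 at an unadjusted p under 0.05, and DESeq2 called 0 with 31. The members of largest interaction value were Eomes at -2.83 (SE 2.29) and Draxin at 2.82 (SE 1.72, edgeR unadjusted p = 0.106, the smallest of the members), which had 1 and 2 UMIs in mature nuclei. The other 7 members ran from -0.32 for Bhlhe22 (SE 0.21) and -0.30 for Neurod1 (SE 0.26) to 0.28 for Dcx (SE 0.22), and no member had an unadjusted p under 0.05.

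Chromatin over the members gave no diet call either. In immature nuclei 0 of 65515 regions were called (0%, 2310 at an unadjusted p under 0.05, 0 by DESeq2), and the member regions ranged from -0.48 to 1.03 with 0 at an unadjusted p under 0.05. In mature nuclei 1 of 111313 regions was called (0.000898%) and it lay over no member. DESeq2 called 0 there, and without HF1 edgeR called 20. The intronic Draxin region described above was 1.81 and 1.68 ATAC CPM in MF against 0.298 and 0.286 in HF, on 12, 11, 2 and 2 counts, at -2.48 (SE 0.95, edgeR unadjusted p = 0.0115, adjusted p = 0.999). The Bhlhe22 start was 40.5 and 37.6 in MF against 27.3 and 29.8 in HF, at -0.43 (SE 0.20, edgeR unadjusted p = 0.041, adjusted p = 0.999). At this number of libraries neither difference can be told from the spread between libraries.

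**Figure D4:**
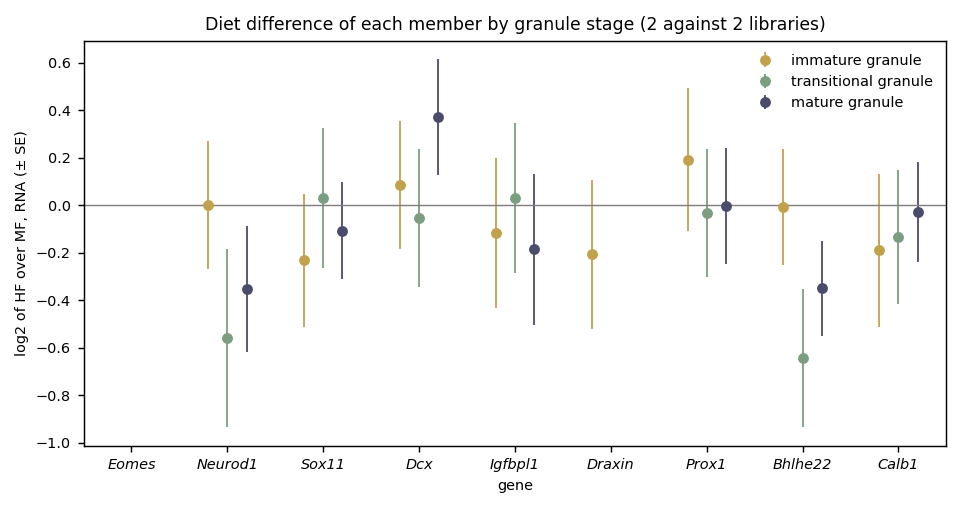
Log2 difference of HF from MF in RNA (edgeR, ± SE) for each tested member in immature, transitional and mature granule-like nuclei. Eomes had too few counts for the test in every stage and Draxin in transitional and mature nuclei. Most bars cross 0, the lowest value is -0.64 for Bhlhe22 in transitional nuclei, and none was called.

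Other genes of the same process were read in the same fits. Of the list of other neuroblast and immature granule genes, 38 of 40 were tested in immature nuclei and 0 called between diets, with a median of -0.02 against 0.01 over all genes. Of the list of other juvenile and mature granule genes, 18 of 34 were tested there and 0 called, with a median of 0.14, and in mature nuclei 32 were tested and 0 called, with a median of 0.12 against -0.01. Of 24 progenitor and Notch genes, 6 were tested in immature and 9 in mature nuclei, with 0 called in either. Sema3c in transitional nuclei, which encodes a secreted guidance cue, had the smallest p of the granule lists in the granule stages, at 1.03 (SE 0.33, edgeR unadjusted p = 0.00435, adjusted p = 0.9999).

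By stage, 30 of 37 genes of the immature list were lower in mature nuclei in all 4 libraries and 4 higher, with a median difference of -1.70 against -0.24 over 7935 genes. Many of them served as stage markers, so this is a description. The exceptions included Robo2, an axon guidance receptor, at 186 ± 56.8 CPM in immature and 1022 ± 156 CPM in mature nuclei, and Bcl11b, a zinc finger factor, at 194 ± 19.5 and 345 ± 31.3 CPM. Of the mature list 23 of 30 genes were higher and 6 lower in all 4 libraries, with a median of 2.34. Many of these genes, Dsp and C1ql2 among them, also served as stage markers, so this too is a description. Over all 7935 genes 21.2% were higher and 46.2% lower in all 4 libraries. The lower genes of the mature list included Nfib, a nuclear factor I gene, at 3043 ± 144 and 993 ± 51.0 CPM. Camk4, a calcium-dependent kinase, was another, at 371 ± 51.3 and 93.4 ± 14.2 CPM. Of the progenitor and Notch list only 4 genes reached 20 CPM, 3 lower and 1 higher.

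The genes whose pattern was most like that of each member were sought by Pearson's r of log2(CPM + 1) over 13 named classes among 12139 genes. The classes share libraries and differ in depth, so r is a description. Neurod1 and Sox11 lay close to each other, with r = 0.93. The nearest to Sox11 was Fxyd6 (0.951), to Igfbpl1 Mex3a (0.936), which is itself on the immature list, and to Draxin Zfp184 (0.958). Calb1 lay nearest to Syt10 (0.945), C1qtnf4 (0.940) and the desmosomal gene Dsp (0.940), all highest in mature granule nuclei. Eomes was followed by Plp2 (0.980), Ddx19a and 5430427M07Rik, Dcx by Klhdc10 (0.928), Slc24a5 and C530008M17Rik, Prox1 by Riok3 (0.916), Prkacb and Rcl1, and Bhlhe22 by Cblb (0.936), D10Wsu102e and Islr2. Ubtd2 and Prrc2b stood next to Neurod1, Txnrd1 and Telo2 to Sox11, Fubp1 and Kdm1a to Igfbpl1, and Polh and Stmn1 to Draxin. All genes named for Eomes and Draxin were highest in the 30 cycling nuclei, where Eomes itself had 11 UMIs. So were Ubtd2, Prrc2b, Telo2, C530008M17Rik and Mex3a. For these genes r leans in part on a class of few nuclei.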

How the data were processed

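RNA and chromatin accessibility were measured in the same nuclei from 4 libraries, 2 per maternal diet, grouped by the labels. The authors aligned reads to mm10 and made the deposited matrices with Cell Ranger ARC 2.0.1; the values used are raw counts, UMIs per gene and ATAC counts per peak. Of the deposited ATAC entries 81.1 to 83.1% were even, since both fragment ends were counted. Peaks had been called per library, so overlapping peaks were merged into regions, and a region was used where all 4 libraries had a peak. Depth was 39223075 to 47460174 UMIs and 79982157 to 113105243 ATAC counts per library.

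Nuclei were kept at 500 to 7000 genes, at 1000 to 70000 ATAC counts and where mitochondrial UMIs made up less than 2%; the nucleosome signal and start-site enrichment filters of the study were not applied. Doublets were scored with Scrublet in scanpy 1.11.5 (expected rate 0.03). Its automatic threshold marked 0 to 22.0% of nuclei, so clusters with a median score over 0.05 were called mixed and left out. Nuclei were clustered on 3000 variable genes, 20 components and 20 neighbours at resolution 0.8, and excitatory nuclei again on 2000 genes at resolution 1.0. A cluster took a name from at least 3 markers among its 50 genes of highest fold. The 9 members and genes overlapping them were kept out of clustering and naming.

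Counts were summed per library and class. Diets were compared with edgeR 4.0.16 (quasi-likelihood test, TMM, filterByExpr, Benjamini-Hochberg over all features tested, R 4.3.3), calling genes at an FDR under 0.05 and at least 1.2-fold and regions at an FDR under 0.05. Stages were compared by ATAC with the library as a term, and standard errors were taken from the estimate and its F statistic. DESeq2 1.42.0 and the other settings in the closing section were alternatives. The procedures were tested on simulated data. Named were all 9 members, the tested region at or nearest each start and the region of smallest stage FDR. The 3 genes most like each member and up to 4 genes of smallest p per list were also named. The intronic regions, Cerkl, Prox1os and the genes moving against their list were picked after values were seen. Members and lists were chosen with earlier results of these data known. Coordinates and sequences are from mm10. Intervals and floors (3 counts) cover counting error only.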

Additional observations from a re-analysis of the deposited data

Results flagged for a closer look

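In 5 of 72 sets of 4 libraries, 1 library stood far from the other 3 by Dixon's test, while chance alone gives about 1 in 20. That rate does not hold for the RNA sets below. Each has UMIs in 1 library only, and such a set is always flagged. Bhlhe22 RNA in cycling nuclei was 67.8 CPM in MF1 and 0 in the others, on 2 UMIs. Eomes RNA in mature nuclei was 0.501 CPM in MF2 and 0 in the others, on 1 UMI. Draxin RNA in mature nuclei was 0.635 CPM in HF1 and 0 in the others, on 2 UMIs. Draxin accessibility in transitional nuclei was 75.5 ATAC CPM in HF2, on 83 counts, against 90.0 to 91.7 in the others. Draxin accessibility in mature nuclei was 46.3 ATAC CPM in HF1, on 311 counts, against 55.2 to 56.8 in the others.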

How the results depend on the processing

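With 2 libraries per diet, counts of calls between diets depended on the setting, and the cause was not tested. Counts are given in the order RNA in immature, transitional, mature, CA1-like and inhibitory neuron-like nuclei. With no filter beyond 1 count edgeR called 6, 1, 6, 9 and 22 genes, with 11 regions in immature and 0 in mature nuclei and 1 gene in the diet by stage test. With the replicate number as a block it called 7, 9, 18, 7 and 19 genes, and 2 and 3 regions. The correlation of deviations of same-numbered libraries was 0.198, 0.176, 0.219, 0.0223 and 0.190 in RNA and 0.0369 and 0.0194 in ATAC, over 2 pairs that share only a number, and the block changed no member's call. RLE size factors gave 3 genes in mature nuclei. The 1 region called in mature nuclei became 0 under DESeq2, with regions of at least 1 library and at resolution 0.5, and 2 with the members returned to clustering. The diet by stage test gave 1 gene without doublets and 1 with the members returned.

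Leaving out 1 library gave 1 to 9, 0 to 4, 3 to 11, 2 to 14 and 6 to 34 genes, 2 to 40 regions in immature and 1 to 20 in mature nuclei, and 0 to 5 genes by stage. The highest counts came without MF2 (11, 34 and 5 genes, 40 regions), HF1 (9 genes, 20 regions) and HF2 (4 and 14 genes).

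Member diet values near 0 changed sign. In immature nuclei Neurod1 (0.0012) was -0.0097 with no filter, -0.0027 at resolution 0.5 and -0.25 with the members returned, where Dcx was -0.23 and Calb1 0.47. With the members returned the immature class held 497 nuclei against 912, so those values come from a smaller group. In transitional nuclei with the members returned Sox11 was -0.38, Dcx 0.28 and Prox1 0.046. In mature nuclei Prox1 was 0.0090 under DESeq2 and RLE, 0.0011 without doublets and 0.012 with the members returned, where Calb1 was 0.028. Without 1 library, immature values ran from -0.29 to 0.43 for Neurod1, -0.083 to 0.27 for Dcx, -0.44 to 0.18 for Igfbpl1, -0.41 to 0.022 for Draxin, -0.00022 to 0.41 for Prox1, -0.093 to 0.099 for Bhlhe22 and -0.66 to 0.079 for Calb1. Transitional values ran from -0.25 to 0.46 for Sox11, -0.29 to 0.21 for Dcx, -0.36 to 0.67 for Igfbpl1, -0.15 to 0.10 for Prox1 and -0.34 to 0.098 for Calb1, and mature values from -0.51 to 0.41 for Igfbpl1, -0.21 to 0.20 for Prox1 and -0.067 to 0.021 for Calb1.

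In mature against immature nuclei, 8 members were lower and Calb1 higher in RNA under each setting run. For accessibility 8 were lower in all 4 libraries except with the members returned (7). The median region moved from 0.20 to 0.30 under RLE, 0.31 under DESeq2 and 0.35 with no filter, and to 0.12 with no library block and 0.13 without the haemoglobin-led cluster, and no start region changed sign. The Dcx region also lost its call under RLE (-0.78), with no filter (-0.84) and with the members returned (-0.87). No transitional cluster was named at resolution 0.5 or from ATAC, so no value was had there.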
